A study of Mus musculus with 7 samples.

Results

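The comparison described here set Rb-depleted primary cells against control primary cells, on 4 of the series' 7 microRNA arrays. The 4 arrays were taken by their labels, 2 of cells carrying a short hairpin RNA against Rb and 2 of cells carrying a non-target hairpin, and all 4 lay on 1 slide. Both groups were cultured from soft tissue sarcomas of mice that lack p53, both were transduced and selected with puromycin, and both were grown as monolayers. The Rb group used a single hairpin sequence, the mice had a C57BL/6 background, and their age and the number of tumours are not given in the sources used here. The remaining 3 arrays, of Rb-depleted secondary cells retrieved from spheres, entered the estimate of the spread between replicates, the deposited normalization and the selection of the miRNAs in the table, but are not compared here. The series states 2 or 3 independent experiments per condition, but no label ties an array to a culture, so p-values measure the spread between arrays, which may be technical. Rb itself is a protein-coding gene and was not measured on a microRNA array, so these data hold no check of its depletion.

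MicroRNAs (miRNAs) are short RNAs cut from hairpin precursors that lower the translation and stability of mRNAs, and they find their targets mostly through the seed, bases 2 to 8. MiRNAs encoded side by side are often made from 1 long transcript, and miRNAs with the same seed share predicted targets, so clusters and seed families are the natural units for describing a profile. Rb binds E2F transcription factors and restrains genes of the cell division cycle, and several miRNA clusters, among them those of miR-17 and miR-106b, are known to be transcribed under E2F and MYC. MiR-140 is made from an intron of Wwp2 and is best known from cartilage.

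The deposited table holds quantile-normalized log2 values of 252 mouse miRNAs. The scanner files gave the total gene signal, the summed brightness of a miRNA's probes in intensity units, for 696. That sum left out weak probes on some arrays. For miR-7a*, control replicate 1 gave 13.0, the brighter of its 2 probes alone, and Rb-depleted replicate 1 gave 23.9 from both (8.90 and 15.0). At low levels, changes in the signal and in the deposited values normalized from it can partly reflect a probe left out. The scanner software called 285 and 284 miRNAs detected on the control arrays and 285 and 287 on the arrays of Rb-depleted cells. All 252 miRNAs of the table were detected on all 4 arrays. The log2 values of the control arrays correlated with Pearson's r = 0.995 over the 252 miRNAs, those of the Rb-depleted arrays with r = 0.990, and pairs across groups with r from 0.976 to 0.991, the lowest for Rb-depleted replicate 2. The summed signal of the 252 miRNAs was 550498 and 538586 in control cells and 501515 and 432616 in Rb-depleted cells. Before normalization the median log2 fold change was -0.26, with 211 of 252 miRNAs lower (83.7%), and the changes given below are relative to that shift. The 2 spike-in RNAs added at labelling were not lower on the Rb-depleted arrays (dmr_285 gave signals of 2660 and 2996 in control cells and 3226 and 3099 in Rb-depleted cells, dmr_31a 851 and 832, then 930 and 961). Whether miRNA fell in these cells at all, per cell or as a share of the RNA, cannot be told from these signals.

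Of the miRNAs on which the results turn, 3 sequences are shown first because they are 3 of the 4 that passed the test, then 5 of the Dlk1-Dio3 locus with different seeds, then the chromosome 6 cluster that was higher in Rb-depleted cells, and then members of families with identical seeds. Capitals mark the seed, and sequences run 5′ to 3′ (RefSeq, build GRCm38.p6, which matched 198 of the 252 names).
miR-337-3p: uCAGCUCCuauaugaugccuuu
miR-136: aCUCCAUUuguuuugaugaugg
miR-1187: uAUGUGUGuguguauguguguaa
miR-376a: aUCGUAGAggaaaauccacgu
miR-376b: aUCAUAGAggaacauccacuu
miR-300: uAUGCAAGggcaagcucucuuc
miR-381: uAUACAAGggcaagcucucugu
miR-382: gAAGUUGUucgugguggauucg
miR-182: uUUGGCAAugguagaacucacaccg
miR-96: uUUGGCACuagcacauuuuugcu
miR-183: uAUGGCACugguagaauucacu
miR-17: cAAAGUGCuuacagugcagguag
miR-20a: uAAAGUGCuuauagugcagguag
miR-20b: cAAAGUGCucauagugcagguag
miR-93: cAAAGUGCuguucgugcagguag
miR-106b: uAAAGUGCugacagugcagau
miR-25: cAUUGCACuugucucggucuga
miR-92a: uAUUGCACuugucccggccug
let-7a: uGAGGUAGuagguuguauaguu
MiR-140 and miR-1839-3p had no entry there.

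In Rb-depleted primary cells, miR-140, miR-337-3p and miR-136 fell and miR-1187 rose, each by about 1.5-fold, and these 4 were the miRNAs that passed the test (limma's moderated test, Benjamini-Hochberg adjusted p = 0.0432 for each; 1.59% of 252). MiR-140 had deposited log2 values of 9.76 and 9.76 in control cells and 9.08 and 9.10 in Rb-depleted cells, a log2 fold change of -0.67 (SE 0.09), which is 1.59-fold lower. Its total gene signals were 966 and 993 in control cells and 584 and 494 in Rb-depleted cells, so the equal control values of the table come from the normalization. The other arm of the same hairpin, miR-140*, read 10.05 and 10.05, then 9.53 and 9.57 (log2 fold change -0.50, SE 0.11, adjusted p = 0.102 by limma). The Mir140 hairpin lies on chromosome 8 at 110075144 to 110075213 (NCBIM37, plus strand), in an intron of Wwp2 on the same strand.

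MiR-337-3p read 7.05 and 7.05 in control cells and 6.51 and 6.34 in Rb-depleted cells, a log2 fold change of -0.62 (SE 0.09). MiR-136 read 6.92 and 6.90, then 6.36 and 6.24, a log2 fold change of -0.61 (SE 0.09). Both belong to the Dlk1-Dio3 locus on chromosome 12, Mir337 at 110824000 to 110824096 and Mir136 at 110833527 to 110833608 on the plus strand, the latter opposite to an exon of Rtl1, an imprinted gene needed for placental growth. MiR-1187, a GU-rich miRNA encoded on chromosome 5 at 83227969 to 83228090 on the minus strand with no annotated host gene, read 5.23 and 5.23, then 5.77 and 5.93, a log2 fold change of 0.62 (SE 0.09). On the signal before normalization miR-1187 was higher by 0.26 on the log2 scale, and after scaling to the labelling spike-ins by 0.10. Every distinct probe of these 4 miRNAs moved in the direction of the table: the 2 probes of miR-140 gave -0.64 and -0.62, the 3 of miR-337-3p -1.01, -0.73 and -0.72, the 2 of miR-136 -0.71 and -0.72 and the 2 of miR-1187 0.56 and 0.45 after scaling to the 75th percentile.

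The number of calls depended on single arrays. Without control replicate 1, 1 miRNA passed and it was none of these 4 (miR-466f-3p), without control replicate 2 or Rb-depleted replicate 2 there were 0 (45 and 33 at an unadjusted p under 0.05), and without Rb-depleted replicate 1 there were 22, all 4 included. When only the 4 arrays of primary cells were fitted, 0 passed by limma, with 71 at an unadjusted p under 0.05.

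**Figure D1:**
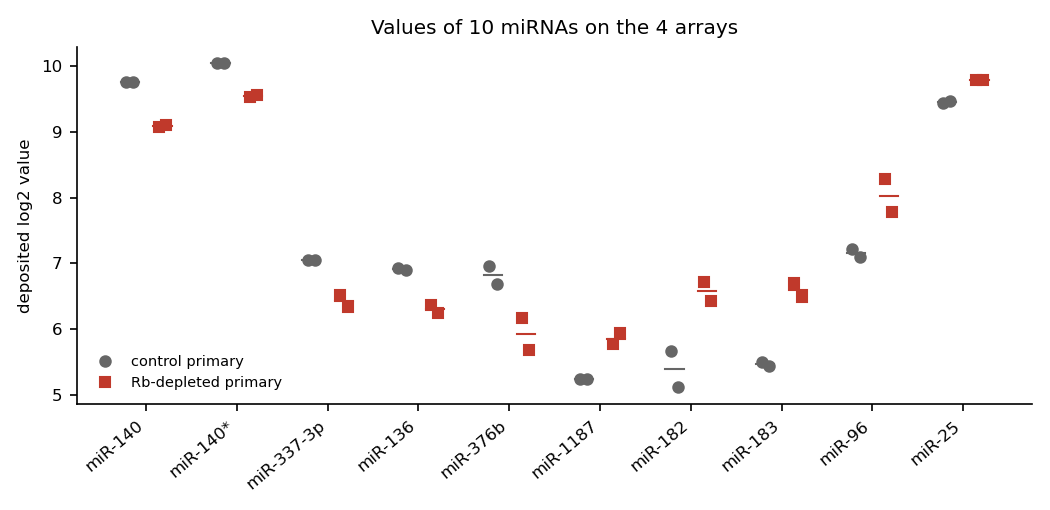
Deposited log2 values (y axis) of 10 miRNAs on each array, with grey circles for the 2 control arrays, red squares for the 2 Rb-depleted arrays and short lines at the group means. The 10 were chosen with their values known, and the groups do not overlap for any of them, against 57.5% of all 252 miRNAs. The arrays of Rb-depleted cells lie 0.67 below control cells for miR-140 and 1.19 above for miR-182.

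Over all 252 miRNAs, the values of the groups did not overlap in 57.5%, with Rb-depleted cells higher in 78 (31%) and lower in 67 (26.6%). Changes were small, since 11 miRNAs differed by more than 2-fold, 6 lower and 5 higher. Of these 11, 7 had a value below 3.16 on at least 1 of the 4 arrays. In that range a deposited value shares its rank with features undetected on another array, which entered the normalization as a signal of 0.1, and differences there are stretched. MiR-299, for example, fell by 1.72 on the log2 scale in the table and by 0.88 in the signal, which was 8.82 and 8.42 in control cells and 5.32 and 4.13 in Rb-depleted cells. In all, 16 of the 252 miRNAs had such a value.

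With the miRNAs ordered by mean level and divided into 4 groups of 63, the median log2 fold change was 0.16 in the lowest group, -0.04 and -0.00 in the middle groups and 0.00 in the highest. The SD of the changes fell from 0.73 in the lowest group through 0.42 and 0.33 to 0.23 in the highest, and the median SE fell from 0.32 to 0.14. Of the 4 calls, 3 were in the second lowest group and 1 in the next.

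The most abundant miRNAs differed little. MiR-1937b and miR-21 were first and second on every array, with equal deposited values in both groups (17.20 and 15.92), and together they took 40.7% and 40.0% of the summed signal in control cells and 43.1% and 44.0% in Rb-depleted cells. MiR-21 is raised in many tumours, and the miR-1937b and miR-720 entries are now held to be fragments of transfer RNA. MiR-720 read 15.01 and 15.01, then 14.59 and 14.59 (log2 fold change -0.42, SE 0.07, adjusted p = 0.0583 by limma), the miRNA nearest to the threshold without passing. MiR-125b-5p read 13.81 and 14.23, then 14.23 and 14.23, and miR-2141 14.23 and 13.60, then 13.60 and 13.60, so that both overlapped between groups.

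**Figure D2:**
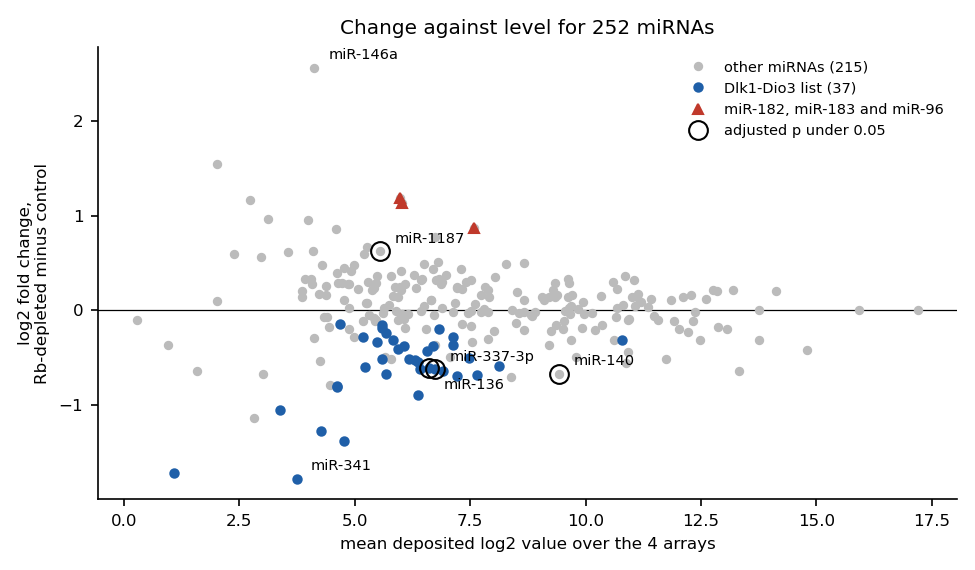
Log2 fold change of Rb-depleted over control primary cells (y axis) against the mean deposited log2 value (x axis), 1 point per miRNA, with the 37 miRNAs of the Dlk1-Dio3 list in blue, the chromosome 6 cluster as red triangles and rings on the 4 miRNAs that passed the test. The blue points all lie below 0, and the spread of the grey points narrows from left to right.

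The widest pattern was at the Dlk1-Dio3 locus, an imprinted region whose miRNAs are made from the maternal chromosome and are abundant in the embryo, the placenta and mesenchymal stem cells. All 37 miRNAs listed for it had a lower mean in Rb-depleted cells, against 122 of 252 (48.4%) in the whole table. In 31 the groups did not overlap, against the 26.6% given above. The median log2 fold change was -0.52, which is 1.44-fold lower, beside 0.01 over all 252 miRNAs and 0.09 over the 215 outside the list. Individually, 2 of the 37 passed the adjusted test and 25 had an unadjusted p under 0.05 (14.7% of all 252 were lower at that p). The list's direction was already known when the list was chosen, so its counts are a description. MiR-1906 was not on the list and changed by 0.25. It has a hairpin in an exon of Meg3 on chromosome 12 at 110782751 and another on the X chromosome.

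The decrease differed between the Rb-depleted arrays. The median difference from the control mean was -0.34 on Rb-depleted replicate 1, where 34 of 37 were below it, and -0.69 on replicate 2, where all 37 were. Replicate 2 read lower than replicate 1 in 35 of the 37, but in 108 of all 252. The control arrays differed from their own mean by a median of 0.02 in either direction. In the scanner files the list gave 1.25% and 1.11% of the summed signal in control cells and 0.985% and 0.701% in Rb-depleted cells. The median log2 change of its signal was -0.88, lower than that of all miRNAs by 0.62, and each of the 37 was below the median of all miRNAs.

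The most abundant members were miR-494, miR-127 and miR-300. MiR-127, which lies opposite to Rtl1 and is known to repress it, read 8.55 and 8.28 in control cells and 8.004 and 7.66 in Rb-depleted cells (log2 fold change -0.58, SE 0.15, adjusted p = 0.113 by limma). MiR-300 read 8.03 and 7.95, then 7.56 and 7.06 (-0.68, SE 0.18). MiR-494 read 11.43 and 10.47, then 10.88 and 10.38, and its groups overlapped. Among the members with the largest changes, miR-376b read 6.96 and 6.68, then 6.17 and 5.68 (-0.89, SE 0.20), and miR-381 5.01 and 5.04, then 4.46 and 3.99 (-0.81, SE 0.21). MiR-341 had the largest decrease in the table, reading 4.59 and 4.67, then 3.70 and 2.01 (-1.78, SE 0.52). Its lowest value lies in the stretched range. The signal of miR-341 fell by 1.75, but it included 2 probes on the control arrays and only the brighter of them on the Rb-depleted arrays. Taken singly, the 2 probes gave -1.10 and -0.91 after scaling to the 75th percentile. None of these members passed the adjusted test.

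Hairpin positions were found for 30 of the 37, in 23 hairpins over 158 kb of chromosome 12 from 110824000 to 110982005, all on the plus strand. The first group, from miR-337 to miR-136, held 8 miRNAs within 10 kb of each other and had a median log2 fold change of -0.60. The group from miR-379 to miR-410 held 20 miRNAs with a median of -0.53. MiR-341, in an intron of the non-coding RNA Rian, and miR-370 lay between them with changes of -1.78 and -0.29. Decreases were therefore found at both ends of the 158 kb. The members did not share a seed: the 35 with a RefSeq sequence had 35 different seeds. MiR-300 and miR-381 differ within the seed and share most of the bases that follow it, as the printed sequences show, and miR-376a and miR-376b likewise differ within the seed. In the table, 1 miRNA of another locus carried a seed of the list (miR-362-3p, with the seed of miR-329), and its log2 fold change was -0.09.

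**Figure D3:**
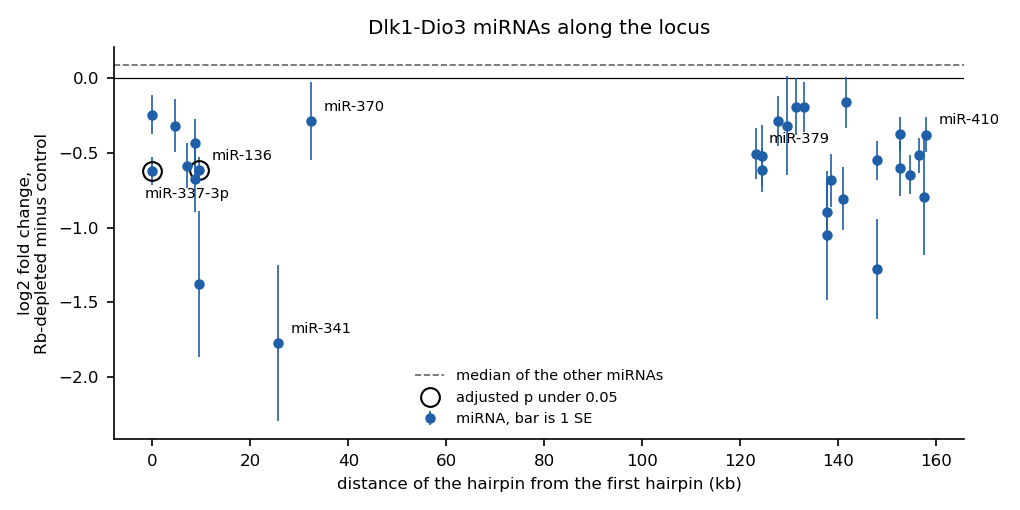
Log2 fold change (y axis) of 30 miRNAs of the Dlk1-Dio3 locus against the distance of their hairpin from the first hairpin in kb (x axis), with bars of 1 SE, rings on the 2 that passed the test and a dashed line at the median of the 215 other miRNAs. All 30 points are below 0 and below the dashed line at 0.09.

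Both arms of a hairpin were in the table for 34 hairpins, and they changed in the same direction in 25 of them. For the Dlk1-Dio3 list this was so in 8 of 8, which follows from all its members being below 0. For the other hairpins it was so in 17 of 26. MiR-136* read 5.42 and 5.49, then 4.86 and 3.29, a log2 fold change of -1.38 beside -0.61 for miR-136. MiR-382* read 4.81 and 4.99, then 3.86 and 3.38, a log2 fold change of -1.28 beside -0.55 for miR-382. The signal left out 1 of 2 probes for miR-136* on Rb-depleted replicate 2 and for miR-382* on both Rb-depleted arrays. Taken singly, the probes gave -1.02 and -1.07 for miR-136* and -0.90 and -0.74 for miR-382* after scaling to the 75th percentile. The arm with the lower level had the larger change in 25 of the 34 hairpins. The part of left-out probes in that count was not tested.

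Neighbouring miRNAs on chromosome 6 had higher values in Rb-depleted cells. MiR-182, miR-96 and miR-183 are encoded within 30115918 to 30119737 (NCBIM37, minus strand), are known from sensory organs and are raised in several tumour types. MiR-182 read 5.66 and 5.11 in control cells and 6.72 and 6.42 in Rb-depleted cells, a log2 fold change of 1.19 (SE 0.38, adjusted p = 0.142 by limma). MiR-183 read 5.49 and 5.44, then 6.70 and 6.49 (1.13, SE 0.44, adjusted p = 0.180 by limma), and miR-96 read 7.21 and 7.10, then 8.28 and 7.77 (0.87, SE 0.41, adjusted p = 0.261 by limma). The groups did not overlap for any of the 3, which was a condition for naming them (31% of all 252 were higher in this way). None of the 3 passed the test. They were also 3 of the 16 miRNAs (6.35%) whose signal before normalization was higher on both Rb-depleted arrays than on both control arrays. The signals of miR-182 were 65.2 and 44.2, then 115 and 77.1, and those of miR-96 were 176 and 171, then 321 and 204. The signal of 44.2 left out the weaker of the 2 probes of miR-182. Those probes gave 0.98 and 0.92 after scaling to the 75th percentile. After scaling to the labelling spike-ins the log2 fold changes were 0.65, 0.64 and 0.40 for miR-182, miR-183 and miR-96. MiR-182 and miR-96 share the first 6 bases of the seed and differ at its last base.

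MiR-146a, which NF-kB induces, had the largest positive change, but it rested on 1 array: it read 2.27 and 3.38 in control cells and 3.68 and 7.10 in Rb-depleted cells (log2 fold change 2.56, SE 1.14, adjusted p = 0.232 by limma). Its signals were 10.8 and 14.0, then 13.4 and 121. MiR-155, another miRNA of inflammatory signalling, read 8.004 and 8.07, then 8.51 and 8.55 (0.49, SE 0.26, adjusted p = 0.297 by limma). The other miRNAs with large positive changes were at low levels. Let-7d* read 0.82 and 1.69, then 2.27 and 3.32, miR-615-3p 2.22 and 2.09, then 3.16 and 3.48, miR-106b* 2.11 and 3.16, then 3.59 and 3.59, and miR-7a* 3.38 and 3.64, then 4.34 and 4.59. Of these 4, all but miR-7a* had values in the stretched range. For miR-7a* and let-7d*, the signals of Rb-depleted cells included a probe that those of control cells left out. After scaling to the 75th percentile, the 2 probes of miR-7a* gave 0.32 and 0.20. The 2 brightest probes of let-7d* gave 0.11 and 0.21. MiR-196a, encoded in the Hox clusters, was at the same low level and read lower in Rb-depleted cells (3.51 and 3.25, then 2.26 and 2.22, adjusted p = 0.297 by limma). Both values of Rb-depleted cells lie in the stretched range. The signal of control replicate 1 included a probe that the other arrays left out. Taken singly, the 4 probes of miR-196a gave -0.24, -0.29, -0.06 and -0.02 after scaling to the 75th percentile.

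The miR-17-92 cluster and its paralogues, which promote cell division and are activated by E2F and MYC, had 12 of 14 members higher in Rb-depleted cells after normalization, against 127 of 252 (50.4%) in the whole table. The groups did not overlap in 10 of them (31% of all miRNAs were higher in this way), 0 passed the test by limma and 4 had an unadjusted p under 0.05 (10.7% of all 252 were higher at that p). The median log2 fold change was 0.23 beside 0.01 over all miRNAs, but it was -0.00 without normalization and -0.17 after scaling to the labelling spike-ins, and 7 of the 14 had a higher signal before normalization, 3 of them without overlap (miR-92a, miR-18a* and miR-106b*, against 6.35% of all 252). MiR-25 read 9.44 and 9.47, then 9.79 and 9.79 (0.33, SE 0.08, adjusted p = 0.102 by limma), and miR-92a, which carries the same seed, 10.38 and 10.52, then 10.69 and 10.80 (0.30, SE 0.10). MiR-18a read 9.25 and 9.34, then 9.44 and 9.48 (0.16, SE 0.08). MiR-20a read 10.95 and 11.13, then 11.27 and 11.16 (0.18, SE 0.15), whereas miR-19b read 11.51 and 11.51, then 11.51 and 11.39 (-0.06, SE 0.10). The 5 miRNAs with the seed AAAGUGC, printed above, had changes from 0.09 to 0.28 with a median of 0.16.

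Among the 7 seeds carried by at least 3 miRNAs of the table, the median log2 fold change ran from -0.02 for the miR-99 and miR-100 seed ACCCGUA to 0.16 for AAAGUGC, so no seed family stood as far from 0 as the Dlk1-Dio3 list. The 9 let-7 miRNAs with the seed GAGGUAG, whose known targets include Hmga2 and Ras genes, had a median of 0.14 (-0.08 before normalization), and 8 of the 9 were above 0. Let-7f, the most abundant, read 12.72 and 12.78, then 12.78 and 13.14. The miR-15 and miR-16 seed AGCAGCA, a seed of miRNAs that repress cyclins, had a median of 0.12 (-0.05 before normalization), with 4 of 5 above 0. MiR-322, the exception, read 9.34 and 9.44, then 9.02 and 9.02 (-0.36, SE 0.48).

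Several of the repeats miR-466, miR-467 and miR-669 lie in an intron of Sfmbt2 on chromosome 2, but miR-466i, miR-467f and miR-669n lie on chromosomes 13, 11 and 3. These repeats had 13 of 15 members above 0 with a median of 0.33, but -0.08 without normalization and -0.25 after spike-in scaling. Their near-identical sequences may share probes, so members are not independent. MiR-669f, the most abundant, was in the other direction (8.13 and 8.13, then 7.95 and 7.87). All 5 miRNAs of miR-199 and miR-214 were below 0 (median -0.23, against 48.4% of all 252 below 0). The groups did not overlap in 3 (26.6% of all 252 were lower in this way). Of the 5, the 4 of miR-199a and miR-214 map to the mesenchymal transcript Dnm3os and had a median of -0.14. MiR-199b* was not placed there, and miR-199a has a further copy on chromosome 9. MiR-199a-5p read 10.78 and 10.78, then 10.47 and 10.47 (-0.31, SE 0.09, adjusted p = 0.120 by limma). MiR-193b read 8.76 and 8.72, then 8.07 and 8.004 (-0.70, SE 0.25, adjusted p = 0.159 by limma). MiR-574-5p, GU-rich like miR-1187, read 6.65 and 6.47, then 7.01 and 7.13 (0.51, SE 0.11, adjusted p = 0.102 by limma). The miR-29, miR-30 and miR-99, miR-100 and miR-125 lists had medians of 0.22, 0.07 and 0.15, and each was below 0 without normalization (-0.26, -0.24 and -0.12). MiR-29b read 13.03 and 13.14, then 13.30 and 13.30 in the table (0.22, SE 0.08), but its signal fell by 0.34 on the log2 scale. MiR-1839-3p read 4.93 and 4.90, then 5.49 and 5.52 (0.59, SE 0.12, adjusted p = 0.0950 by limma).

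**Figure D4:**
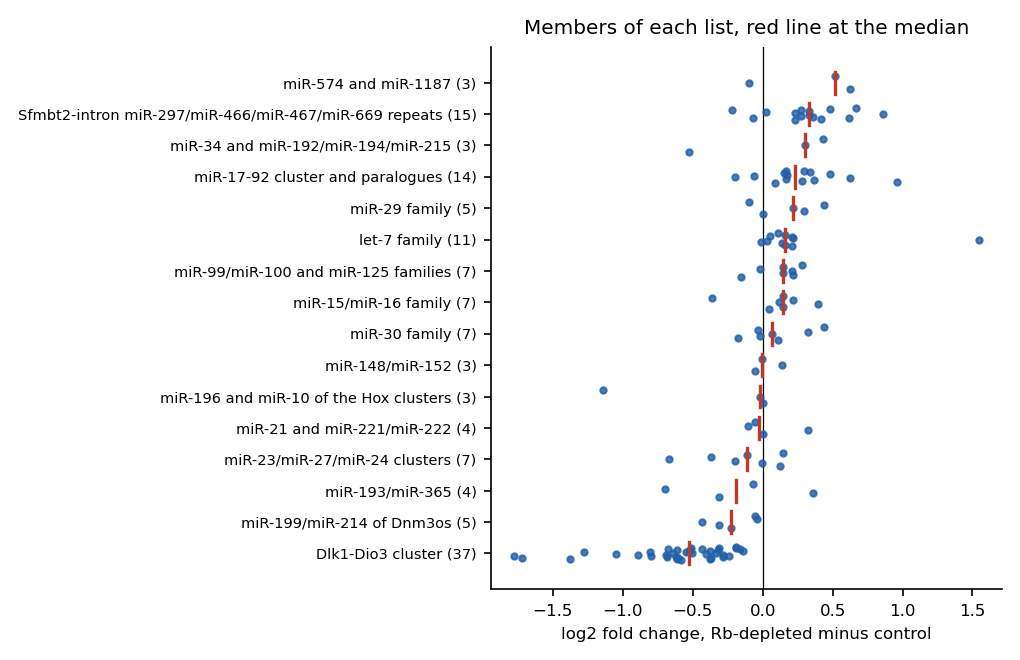
Log2 fold change of the members (blue points, x axis) of the 16 lists with at least 3 miRNAs in the table (rows, number of members in parentheses), with a red line at each median. The Dlk1-Dio3 members all lie left of 0, and the medians of the other lists lie between -0.23 and 0.51.

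Apart from the neural miRNA miR-9, the markers of other cell types were absent or low in both groups. None of the 9 probed miRNAs of the epithelial miR-200 family and none for the hepatocyte miRNA miR-122 was detected on any of the 4 arrays, and of the 7 blood cell miRNAs 1, miR-451a, was detected on Rb-depleted replicate 2 alone (signal 8.81). Of 8 miRNAs of muscle 1 was detected, miR-206, with signals of 46.3 and 47.0 in control cells and 43.8 and 27.8 in Rb-depleted cells, while miR-1 and miR-133 were not. MiR-126, the endothelial marker, gave 10.73 and 9.84, then 9.10 and 7.02. The neural miRNA miR-9 was present with its other arm (summed signals of 175 and 180, then 149 and 103), and miR-124 was not detected. MiR-143, of mesenchymal and smooth muscle cells, read 10.31 and 10.31, then 10.17 and 10.05. The part of other cells in the changes above was not tested beyond these values.

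The scanner files and the table gave different signs for many miRNAs. After subtraction of the median change, the signal and the table gave 220 of 252 miRNAs the same sign. Without that subtraction, 146 miRNAs (57.9%) had signals lower on both Rb-depleted arrays than on both control arrays and 16 (6.35%) higher. In the Dlk1-Dio3 list the signals of 36 of 37 were lower in this way.

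**Figure D5:**
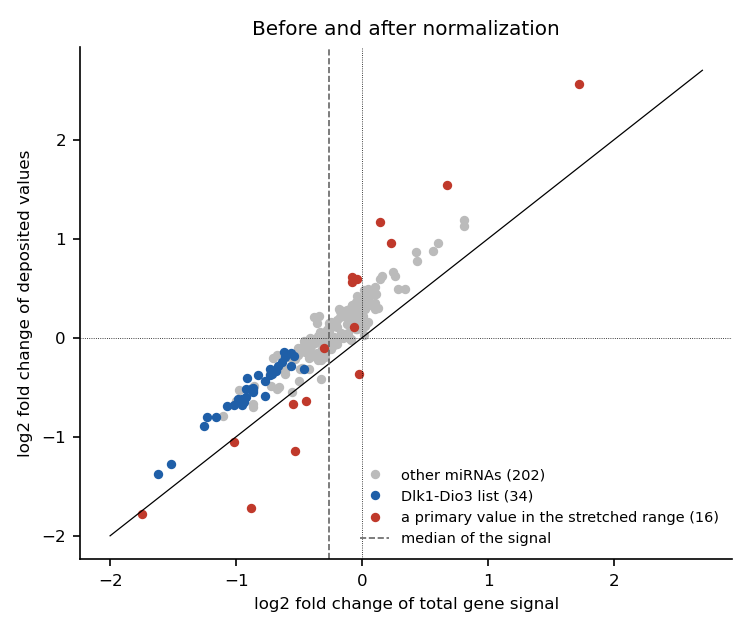
Log2 fold change of the deposited values (y axis) against that of the total gene signal before normalization (x axis), with a diagonal of equality, a dashed line at the median of the signal (-0.26) and red points for the 16 miRNAs with a value in the range stretched by undetected features. Most points lie above the diagonal, and the Dlk1-Dio3 miRNAs (blue) are at the lower left.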

How the data were processed

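MiRNA expression in control and Rb-depleted primary cells was read on Agilent mouse miRNA arrays with 1 colour, 2 arrays a group. The log2 values deposited by the authors had been quantile normalized in GeneSpring. The scanner output they deposited gives the intensity of each spot and miRNA (Feature Extraction 11.0.1.1 per the file headers). The log2 values were recomputed from the total gene signal of 718 features, undetected ones at 0.1, to within 3.24e-06, which matched the 252 table names to the scanner's. The 11 control rows were left out. Because the table holds miRNAs detected on every array, miRNAs lost in 1 group are not in it.

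A limma 3.58.1 model (R 4.3.3) with 3 group means was fitted to the 7 arrays, and the contrast of Rb-depleted with control primary cells was tested for 252 miRNAs, calling those with an adjusted p of at most 0.05 by the Benjamini-Hochberg method. The procedure was tested on simulated data. Named miRNAs were those past the threshold, the 8 largest changes in each direction among groups that do not overlap, the 5 most abundant in control cells, those the study lists, up to 3 of highest level per list, and miRNAs detected in 1 group only. Any others were chosen after their values were seen. The members and lists were chosen with earlier results of these data known. Hairpins came from the GENCODE annotation of NCBIM37, and clusters joined hairpins within 10 kb. Python 3.11.15, numpy 2.4.6, pandas 2.3.3 and matplotlib 3.10.9 were used. The number of arrays limits the precision. Other normalizations, a pseudocount of 16, other filters and moderation, analysis of variance with Dunnett's test (mvtnorm 1.3.3), array weights (statmod 1.5.0), the replicate block and leaving out each array were tried.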

Additional observations from a re-analysis of the deposited data

Results flagged for a closer look

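Some miRNAs outside the deposited table gave more signal on both Rb-depleted arrays than on both control arrays, in data that the comparison did not use. MiR-146b-5p was undetected in control cells and gave 11.3 and 12.8 in Rb-depleted cells (mean 12.02). MiR-186-3p was likewise undetected in control cells and gave 4.18 and 3.59 (mean 3.88), near the lowest signals called detected. MiR-191-3p gave 4.86 and 5.31 in control cells and 20.7 and 7.62 in Rb-depleted cells (mean 14.2). MiR-3470a gave 12.9 on 1 control array and 20.5 and 18.6 in Rb-depleted cells (mean 19.6). MiR-877-3p gave 5.02 on 1 control array, then 9.18 and 15.4 (mean 12.3). Let-7f-1-3p gave 7.34 on 1 control array, then 8.44 and 11.02 (mean 9.73). MiR-421-3p gave 10.1 and 11.3, then 11.6 and 11.6 (mean 11.6). These differences were not tested.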

How the results depend on the processing

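With 2 arrays a group, single arrays decided the calls. Against 4 miRNAs called in the comparison as reported, 0 were called when the 4 primary arrays were fitted alone, after 75th percentile scaling, with the replicate block, and, as settings chosen after seeing the data, with quantile normalization over the 4 primary arrays and over all 271 miRNAs detected on them (smallest adjusted p by limma 0.0769, 0.0699, 0.175, 0.0851 and 0.0845, with 71, 42, 59, 70 and 75 at an unadjusted p under 0.05). Array weights gave 8, as did a floor of 1 with 312 mouse miRNAs tested, no normalization 27, analysis of variance with Dunnett's test 28 and spike-in scaling, chosen after seeing the data, 83. Leaving out 1 array gave 0 to 22, where the lone array of a group was assumed to vary like the others. The 4 other settings stayed within 1.5 times, but miR-1187, the 1 miRNA called higher, was not called with quantile normalization over the table's miRNAs alone (3 called) or with trend and robust moderation (5 called). The 27 and 83 were all lower in Rb-depleted cells, and of the 28, 14 were higher. Across all settings the Dlk1-Dio3 median stayed below 0, from -0.34 without Rb-depleted replicate 2 to -1.05 with spike-in scaling. All 37 members were below 0 except without control replicate 1 (36) and without Rb-depleted replicate 2 (34). Of the 252 miRNAs, 86 turned from above to below 0 with no normalization, 114 with spike-in scaling and 21 with 75th percentile scaling, which turned 10 the other way. Among the miRNAs with printed values, signs turned with no normalization for miR-125b-5p (-0.084), miR-18a (-0.053), let-7f (-0.0795) and miR-29b (-0.34), with 75th percentile scaling for miR-29b (-0.11) and miR-19b (0.035), and with spike-in scaling for miR-615-3p (-0.0218), miR-125b-5p (-0.25), miR-18a (-0.22), miR-20a (-0.16), miR-25 (-0.076), miR-92a (-0.042), let-7f (-0.25), miR-574-5p (-0.061), miR-29b (-0.51) and miR-1839-3p (-0.027). Leaving out 1 array, miR-494 ran from -0.80 to 0.16, above 0 without control replicate 1, and miR-362-3p from -0.21 to 0.035, above 0 without Rb-depleted replicate 2. The causes were not tested. The arrays share replicate numbers only: deviations of same-numbered arrays from their group means correlated at 0.13 over 252 miRNAs, and the replicate block called 0.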

Other observations

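Outside the table, 19 further miRNAs were detected on all 4 primary arrays. Their signals were low, from 3.38 to 59.9, and 14 of the 19 (73.7%) were lower in Rb-depleted cells, 12 of them (63.2%) without overlap, against 83.7% and 57.9% of the 252 miRNAs of the table on the same signal. The median log2 change of their signal was -0.41, beside -0.26 for the 252 of the table. The miRNAs named in the rest of this paragraph were chosen after their values were seen, apart from miR-542-3p. MiR-483-5p, encoded in an intron of Igf2, gave 59.9 and 49.4 in control cells and 25.9 and 27.3 in Rb-depleted cells. MiR-138-5p gave 21.6 and 19.02, then 10.66 and 7.67. The Dlk1-Dio3 miRNAs miR-134-5p and miR-433-3p gave 9.40 and 15.9, then 5.94 and 3.48, and 16.9 and 17.5, then 14.9 and 9.28. Most detected miRNAs of the X-linked cluster of miR-322, miR-503, miR-351, miR-542 and miR-450 were also lower before normalization, as were 83.7% of the table. MiR-542-3p of this cluster gave 22.9 and 29.2 in control cells and was undetected on both Rb-depleted arrays. MiR-351-5p gave 9.26 and 8.05, then 6.16 and 4.85, and miR-450a-5p in the table read 6.00 and 6.10, then 5.44 and 5.64. However, miR-450a-2-3p was detected on 1 control array (10.1) and on both Rb-depleted arrays (9.38 and 7.07). In the table miR-503 changed by -0.04.

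MiRNAs detected on both control arrays and on neither Rb-depleted array were 4. Besides miR-542-3p these were miR-290-5p, of the cluster known from pluripotent cells (16.2 and 10.0), miR-153-3p (10.8 and 12.3) and miR-32-5p (5.12 and 8.02). MiRNAs detected on both Rb-depleted arrays only were 2, miR-146b-5p and miR-186-3p, whose values are given above. No test was made on these signals.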
